A study of Mus musculus with 12 samples.

Results

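Forebrain regional identity factors are transcription factors that assign cells of the early telencephalon to dorsal or ventral, rostral or caudal fates, and several of them stay switched on in the adult neural stem cells (NSCs) that descend from each region. The 9 genes described here, Pax6, Emx1, Emx2, Gsx2, Lhx2, Nr2e1, Nr2f1, Otx1 and Nkx2-1, were taken by symbol from a table of 17365 genes measured by RNA-seq in mouse NSC cultures. All 9 had a row in the table. Of these, 7 passed the filter on low counts and were tested among 13312 genes, while Emx1 and Nkx2-1 did not pass it. Gsx2 passed only through the counts it had in EGF/FGF, where it was highest.

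The cultures were wild-type NSCs from the subventricular zone (SVZ) of mice 6 to 8 weeks old, used below passage 10. ANS4 is labelled as derived from MF1 mice and BL6 from C57BL/6 mice, with 1 culture line per strain, so that line and strain cannot be told apart. The strain labels could not be checked against sequence variants in these files, and strains are named here only as labelled. Cells were kept for 3 days with EGF and FGF2 (EGF/FGF, proliferating), with BMP4 alone (BMP, dormant quiescent NSCs, d-qNSCs) or with BMP4 and FGF2 (BMP/FGF, primed quiescent NSCs, p-qNSCs), each factor at 10 ng/ml in serum-free medium with laminin. Each line had 2 biological replicates per condition, giving 4 libraries per condition and 12 in all. The sources do not say whether replicates were separate derivations, so p-values measure the spread between these libraries and these 2 lines.

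Pax6, Emx2 and Emx1 are homeodomain proteins of the dorsal telencephalon (pallium), and Emx1 marks the lineage of the cortex and of the dorsal SVZ wall. Gsx2 is the homeodomain factor of the lateral ganglionic eminence, whose progeny line the lateral SVZ wall, and Nkx2-1 that of the medial ganglionic eminence and ventral tip of the ventricle. Lhx2 is a LIM-homeodomain factor that maintains cortical identity, Otx1 an orthodenticle-related factor of forebrain and midbrain, Nr2f1 (COUP-TFI) an orphan nuclear receptor that patterns the cortex along its caudal to rostral axis, and Nr2e1 (Tlx) an orphan nuclear receptor required for self-renewal of adult NSCs.

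The libraries held between 18069052 and 19451818 counts. NSC and radial glia genes were counted in all of them, with a summed level of 8 genes between 7449 and 11166 CPM (counts scaled to library size by TMM), but in both quiescent states 4 of the 8 rose and 4 fell. Vim and Slc1a3 were among those that rose, and the NSC marker Nes fell from a mean of 569 CPM in EGF/FGF by 2.17 in BMP and by 2.30 in BMP/FGF on the log2 scale. In contrast, the microglial receptor Csf1r had at most 2 counts in any library. All 6 cycling genes fell in both quiescent states, and their summed level lay between 1959 and 2428 CPM with EGF/FGF, between 274 and 463 with BMP and between 187 and 198 with BMP/FGF. The 2 BL6 BMP libraries differed from each other more than any other pair, with a chi-square of 12.5 per degree of freedom over genes against 2.14 to 4.77 in the other 5 pairs. Between the lines, 239 genes or 1.8% of those tested differed at a false discovery rate (FDR) under 0.05, and 0 of them by more than 1.5 on the log2 scale. That count averages over conditions and depends on single libraries. Within BMP 3066 genes differed between the lines, 45 of them by more than 1.5, within EGF/FGF 898, 16 of them by more than 1.5, and within BMP/FGF 98, of which 1 by more than 1.5. Without 1 library the 239 became 52 to 301, and lay between 52 and 153 without either ANS4 EGF/FGF, ANS4 BMP or BL6 EGF/FGF library or without BL6 BMP replicate 1.

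Among the 9 factors, 6 were expressed at 18.97 CPM or more in every library, Gsx2 at under 1 CPM in each, and Emx1 and Nkx2-1 at or near 0. Emx1 had 1 count in ANS4 BMP replicate 2, 1 count in BL6 EGF/FGF replicate 1 and 0 in the other 10 libraries. Nkx2-1 had 2 counts in each of the BL6 BMP libraries, 1 in ANS4 EGF/FGF replicate 2, 1 in ANS4 BMP/FGF replicate 1 and 0 elsewhere. Both genes therefore stayed at or below 3 counts per library, the limit that a count of 0 allows, which corresponded to 0.154 to 0.166 CPM. That limit covers counting error only. The dorsal marker Emx1 and the ventral marker Nkx2-1 were thus not detectable above this limit in either line or any condition. In contrast to Emx1, the dorsal factors Emx2 and Pax6 had 13171 and 13531 counts over the 12 libraries.

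**Figure D1:**
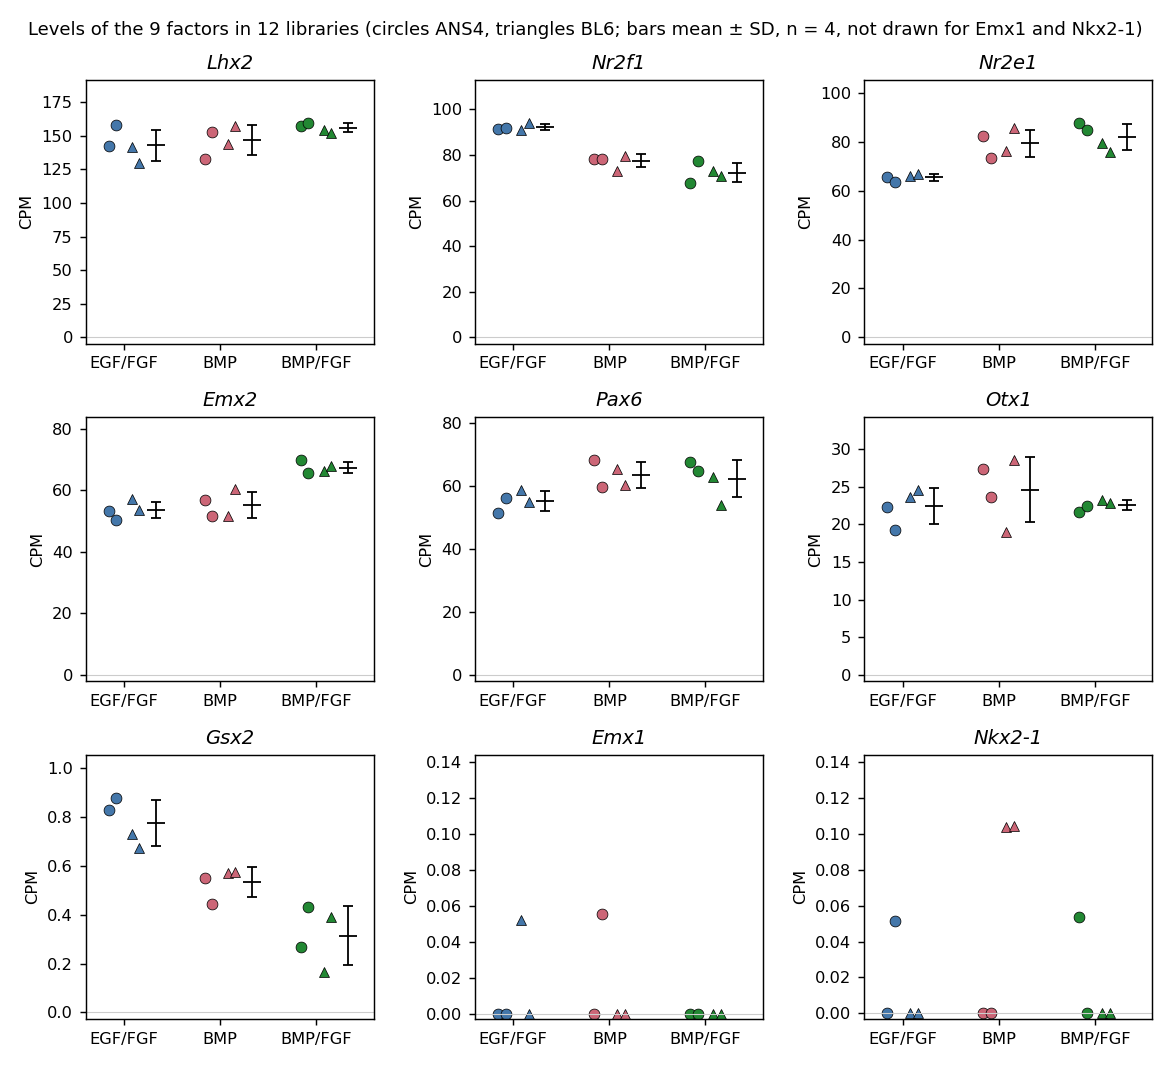
Level of each of the 9 factors in CPM (vertical axis, from 0, scaled per gene) in the 12 libraries, by condition (horizontal axis). Circles are ANS4 libraries and triangles BL6 libraries, and black bars give the mean ± SD of the 4 libraries, not drawn for Emx1 and Nkx2-1. Lhx2, Nr2f1, Nr2e1, Emx2, Pax6 and Otx1 stayed within a range of 1.23-fold to 1.5-fold over all libraries, Gsx2 was lowest in BMP/FGF, and Emx1 and Nkx2-1 never exceeded 2 counts.

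Levels were compared between genes per kilobase (kb) of each gene's longest annotated transcript. Lhx2 was highest at 52.3 ± 3.57 CPM per kb (SD, n = 12), above 90.3% of tested genes with a length. It was followed by Nr2f1 at 25.1 ± 2.88, Nr2e1 at 23.0 ± 2.63 and Emx2 at 20.1 ± 2.41 CPM per kb. The neighbours Nr2f1 and Nr2e1 overlapped over the libraries, with Nr2f1 the higher in 5 of 12, and so did Nr2e1 and Emx2, with Nr2e1 the higher in 11 of 12. Pax6 at 13.6 ± 1.251 and Otx1 at 4.4 ± 0.527 CPM per kb came next, and Gsx2 at 0.325 ± 0.129 CPM per kb lay at the 6.09th percentile of tested genes. In EGF/FGF Nr2f1 and Nr2e1 averaged 28.7 and 19.9 CPM per kb. The values were 24.1 and 24.2 in BMP, and 22.5 and 25.0 in BMP/FGF, so their order differed between conditions. Both the order of Nr2f1 and Nr2e1 and that of Emx2 and Pax6 also depended on the transcript length used. With the median length of each gene's transcripts Nr2e1 (105.5 CPM per kb) stood above Nr2f1 (88.0 CPM per kb), with Nr2f1 the higher in 4 of 12 libraries, and Pax6 (44.1 CPM per kb) stood above Emx2 (37.1 CPM per kb) in all but 1 of the 12 libraries.

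On GRCm38 (mm10), the build the authors quantified against, the protein-coding gene Lhx2 lies at chr2:38339281-38369733 on the plus strand, Pax6 at chr2:105668900-105697364 (plus), Emx2 at chr19:59458372-59465357 (plus), Gsx2 at chr5:75075601-75077893 (plus), Nr2e1 at chr10:42561963-42583632 (minus) and Nr2f1 at chr13:78188973-78199757 (minus). Otx1 lies at chr11:21994764-22002897 (minus), Emx1 at chr6:85187438-85204462 (plus) and Nkx2-1 at chr12:56531958-56536908 (minus). RefSeq gave promoter windows of 300 bases (250 before and 50 from the transcription start on, GRCm38.p6) for 8 of the 9 genes, 11 windows in all, and none for Otx1. The stretch just before the start is shown for the most highly expressed factor, for Pax6 and for Gsx2, the tested factor with the lowest level, with every CG dinucleotide in capitals, to show that the window of a factor near the lower end of expression is also rich in CG:
Lhx2, chr2:38339181-38339280, plus strand: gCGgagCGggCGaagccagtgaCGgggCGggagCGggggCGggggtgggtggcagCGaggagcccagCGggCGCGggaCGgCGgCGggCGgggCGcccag
Pax6, chr2:105668796-105668895, plus strand: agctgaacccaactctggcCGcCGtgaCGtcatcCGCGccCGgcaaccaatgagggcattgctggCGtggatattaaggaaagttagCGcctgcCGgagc
Gsx2, chr5:75075501-75075600, plus strand: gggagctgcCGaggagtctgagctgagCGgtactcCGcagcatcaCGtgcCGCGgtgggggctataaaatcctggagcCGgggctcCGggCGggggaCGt
The whole windows around these starts held 34 CG dinucleotides in Lhx2, 18 in Pax6 and 17 in Gsx2, against a median of 7 over the 32851 windows of the RefSeq table. Lhx2 and Pax6 each have a second window, with 29 and 16. The nearly silent Emx1 had 37, the most among the 11 windows, whereas Nkx2-1, also nearly silent, had 12. A second window of Nr2f1 had 4, the fewest.

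Exact letter matches to 6 short motifs bound by factors of these families or their partners were searched on both strands of these windows. TAATTA and GGCGCC read the same on both strands. TAATTA, a core bound by many homeodomain proteins, is present in 5.29% of all windows and was found in 1 of the 11, that of Emx2, starting at base 37 after the start on chr19:59458714-59458739 (capitals mark the motif):
Emx2: tgatccccgcacTAATTAggctcatg
AAGTCA, a core of Nr2e1 binding sites, is present in 15.1% of all windows and was found in that of Nr2e1 itself, starting at base 8 after the start on chr10:42583566-42583595, minus strand:
Nr2e1: gcgacaggcacaAAGTCAcagggtaatgaa
AGGTCA, a core bound by many nuclear receptors, occurs in 16.3% of all windows and among the factors in that of Nkx2-1. GGCGCC occurs in 11.9% of all windows and in those of Emx2 and Lhx2. TAATCC, a core of Otx sites, occurs in 7.06% of all windows and CAAGTG, a core of Nkx2 sites, in 13.6%, and neither in any of the 11 (0 matches). These matches describe letters in the windows and are not evidence of binding.

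To ask whether entry into either quiescent state altered these identity genes, the conditions were compared across all 13312 genes. In BMP against EGF/FGF, Pax6 and Nr2e1 rose and Nr2f1 fell, 2 factors higher and 1 lower of the 7 tested, where 40.8% of all tested genes were higher and 38.8% lower. In BMP/FGF against EGF/FGF, Pax6, Emx2 and Nr2e1 rose and Gsx2 and Nr2f1 fell, 3 higher and 2 lower (1 lower without Gsx2), where 40.9% of all tested genes were higher and 38% lower. Between the quiescent states only Emx2 passed the test, higher in BMP/FGF, 1 higher and 0 lower, where 20.1% of all tested genes were higher and 21.3% lower. The comparisons share libraries and are not independent of each other. With 7 factors, a share of 3 or fewer in a direction is near or below these shares, and the counts are therefore no result about the factors.

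At the median, the changes of the factors were small beside those of all tested genes, which were not matched to the factors on level. Exceptions were Gsx2 in BMP/FGF against EGF/FGF, and Gsx2 and Emx2 in BMP/FGF against BMP, which changed by more than the median gene. The median absolute log2 fold change of the 7 factors was 0.20 in BMP against EGF/FGF, 0.32 in BMP/FGF against EGF/FGF and 0.10 in BMP/FGF against BMP, and over all tested genes it was 0.61, 0.59 and 0.20. None of the factors passed an absolute log2 fold change of 1.5 (0 of 7 in each comparison), which 17.8%, 16.7% and 1.59% of all tested genes did together with FDR under 0.05. Since Gsx2 could only pass the filter through its higher condition, the medians were also taken without it and came to 0.17, 0.25 and 0.09. A fall in the number of cells that carry a factor and a fall of its RNA per cell cannot be told apart in these bulk libraries.

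**Figure D2:**
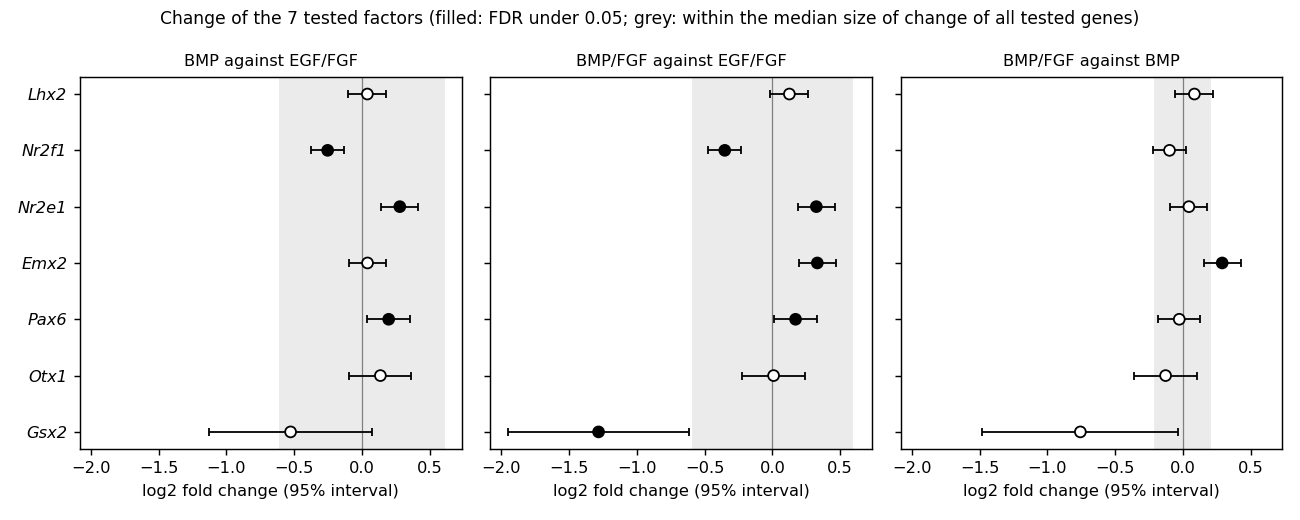
Log2 fold change (horizontal axis) of the 7 tested factors in the 3 comparisons of conditions, with 95% intervals. Filled points have FDR under 0.05, and the grey band spans the median absolute log2 fold change of all 13312 tested genes (0.61, 0.59 and 0.20). All points except Gsx2 in BMP/FGF against EGF/FGF, and Gsx2 and Emx2 in BMP/FGF against BMP, lie inside the band.

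Nr2e1, the self-renewal receptor, was higher in both quiescent states. In EGF/FGF its level was 65.6 and 63.5 CPM in ANS4 and 66.2 and 66.7 in BL6. In BMP it was 82.2 and 73.5 CPM in ANS4 and 76.4 and 85.7 in BL6, and in BMP/FGF 87.8 and 85.0 in ANS4 and 79.5 and 75.7 in BL6. All 8 quiescent libraries stood above all 4 proliferating ones, and the BMP and BMP/FGF ranges overlapped. The log2 fold change against EGF/FGF was 0.28 in BMP (SE 0.07, 95% interval 0.14 to 0.42, FDR = 0.000777) and 0.32 in BMP/FGF (SE 0.07, 0.19 to 0.46, FDR = 0.0002). Both calls held in 22 of 22 alternatives. BMP/FGF and BMP differed by 0.04 (-0.09 to 0.18, FDR = 0.609).

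Nr2f1, the receptor of cortical area patterning, changed the opposite way. Its level in EGF/FGF was 91.6 and 92.005 CPM in ANS4 and 91.0 and 94.1 in BL6, a spread of 1.37 CPM (SD, n = 4) around 92.2. In BMP the ANS4 libraries were at 78.3 each and the BL6 libraries at 73.2 and 79.6 CPM, and in BMP/FGF the levels were 67.7 and 77.5 in ANS4 and 72.8 and 71.0 in BL6. Each of the 8 quiescent libraries was below each proliferating one. The log2 fold change was -0.25 in BMP (SE 0.06, -0.37 to -0.13, FDR = 0.000607) and -0.35 in BMP/FGF (SE 0.06, -0.47 to -0.23, FDR = 2.33e-05), called in 22 of 22 alternatives. The further difference of -0.10 between BMP/FGF and BMP (-0.22 to 0.02, FDR = 0.188) did not pass the test.

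Emx2, the dorsal homeobox gene, was the 1 factor called between the quiescent states. It was at 53.4 and 50.4 CPM in the ANS4 EGF/FGF libraries and at 57.0 and 53.5 in those of BL6. In BMP it was at 56.9 and 51.7 CPM in ANS4 and at 51.6 and 60.3 in BL6, and in BMP/FGF at 69.8 and 65.7 in ANS4 and 66.3 and 67.7 in BL6. All 4 BMP/FGF libraries were above the 8 others, whereas the EGF/FGF and BMP ranges overlapped. Emx2 was higher in BMP/FGF by a log2 fold change of 0.29 over BMP (SE 0.06, 0.15 to 0.43, FDR = 0.00168) and of 0.33 over EGF/FGF (SE 0.06, 0.20 to 0.47, FDR = 0.000144). These calls held in 22 of 22 alternatives, over which the difference from BMP lay between 0.25 and 0.33. BMP and EGF/FGF differed by 0.04 (-0.10 to 0.18, FDR = 0.57).

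Emx2os, an RNA transcribed antisense to Emx2, moved in the same direction with larger changes. It was looked at after the values of Emx2 were seen, because 264 of the 3002 exonic bases of Emx2 (8.79%) are shared with it and the sources do not say whether counting used strand. Emx2os was at 3.47, 3.51, 3.54 and 3.51 CPM in EGF/FGF, at 5.68, 5.59, 4.87 and 5.89 in BMP and at 7.81, 8.67, 7.71 and 7.31 in BMP/FGF (the ANS4 libraries before those of BL6). No 2 conditions overlapped. Its log2 fold change was 0.65 in BMP against EGF/FGF (SE 0.12, FDR = 6.4e-05), 1.17 in BMP/FGF against EGF/FGF (SE 0.11, FDR = 3.42e-08) and 0.52 in BMP/FGF against BMP (SE 0.11, FDR = 0.00102). In BMP against EGF/FGF Emx2os thus rose where Emx2 did not pass the test, a difference that was not itself tested. Reads of either RNA over the shared bases cannot be told apart without strand.

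Nr2f1 also has an antisense neighbour, A830082K12Rik, with which it shares 123 of 5093 exonic bases (2.42%). This RNA was raised in BMP/FGF relative to EGF/FGF by a log2 fold change of 0.52 (SE 0.12, FDR = 0.00101, called in 21 of 22 alternatives), while Nr2f1 was lower. In BMP its change was 0.29 (SE 0.13, FDR = 0.0445) and was called in 10 of 22 alternatives only. Pax6 shares no exonic base with Pax6os1, which was at 0 in EGF/FGF and BMP/FGF.

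Pax6, the paired-type homeobox gene of the pallium and of olfactory bulb neurogenesis, was slightly higher in BMP. Its level was 51.2 and 56.2 CPM in ANS4 and 58.6 and 54.8 in BL6 in EGF/FGF, and 68.1 and 59.5 in ANS4 and 65.3 and 60.2 in BL6 in BMP. In BMP/FGF it was 67.5 and 64.6 CPM in ANS4 and 62.8 and 53.9 in BL6. The BMP libraries were all above those in EGF/FGF, while BL6 BMP/FGF replicate 2 fell inside the EGF/FGF range. The log2 fold change was 0.20 in BMP (SE 0.07, 0.04 to 0.35, FDR = 0.0217) and 0.17 in BMP/FGF (SE 0.07, 0.01 to 0.33, FDR = 0.0437).

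These Pax6 calls depended on single libraries and, in BMP/FGF, also on the scaling and the test. In BMP the call was lost without ANS4 EGF/FGF replicate 1 (0.15, FDR = 0.097), ANS4 BMP replicate 1 (0.16, FDR = 0.0834) or BL6 BMP replicate 1 (0.17, FDR = 0.0625), and held in 18 of 22 alternatives. In BMP/FGF it held in 8 of 22 alternatives and was lost, at 0.12 to 0.17 with FDR of 0.0563 to 0.178, without ANS4 EGF/FGF replicate 1 or 2, ANS4 BMP replicate 1, ANS4 BMP/FGF replicate 1 or 2, BL6 EGF/FGF replicate 2 or BL6 BMP/FGF replicate 1. With all libraries it was also lost with DESeq2 size factors (0.15, FDR = 0.0675), with library size only (0.15, FDR = 0.0915), with the DESeq2 Wald test (0.15, FDR = 0.0741), with limma-trend on the deposited log2 values (0.17, FDR = 0.0664), without the filter (0.17, FDR = 0.0607) and with a replicate block (0.17, FDR = 0.0501), and in BL6 alone (0.03, FDR = 0.802).

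Lhx2 and Otx1 did not pass the test in any of the 3 comparisons. Lhx2 was at 142 and 158 CPM in the ANS4 EGF/FGF libraries and at 142 and 129.99 in those of BL6, at 133 and 153 in ANS4 and 144 and 158 in BL6 in BMP, and at 157 and 159.7 in ANS4 and 154 and 152 in BL6 in BMP/FGF. All conditions overlapped. The log2 fold change against EGF/FGF was 0.04 in BMP (95% interval -0.10 to 0.18, FDR = 0.592) and 0.13 in BMP/FGF (-0.02 to 0.27, FDR = 0.0939), so that changes above 0.27 lay outside the intervals. Without ANS4 EGF/FGF replicate 2, the highest of its group, the second difference was 0.17 with FDR = 0.0328.

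Otx1 was at 22.3 and 19.2 CPM in ANS4 and 23.7 and 24.5 in BL6 in EGF/FGF, and between 21.7 and 23.2 in the 4 BMP/FGF libraries. In BMP it was at 27.3 and 23.7 CPM in ANS4, and the BL6 replicates stood apart at 18.97 and 28.5, the lowest and the highest of all 12 libraries. Its log2 fold change was 0.14 in BMP against EGF/FGF (-0.09 to 0.37, FDR = 0.258), 0.01 in BMP/FGF against EGF/FGF (-0.22 to 0.24, FDR = 0.945) and -0.13 in BMP/FGF against BMP (-0.36 to 0.10, FDR = 0.373). Without BL6 BMP replicate 1 Otx1 was called higher in BMP than in EGF/FGF (0.27, FDR = 0.00737) and lower in BMP/FGF than in BMP (-0.26, FDR = 0.0223).

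Gsx2, the factor of the lateral ganglionic eminence, had the lowest level of the 7 and is described by its counts. It had 16 and 17 counts in the ANS4 and 14 and 13 in the BL6 EGF/FGF libraries, 10 and 8 in ANS4 and 11 in each BL6 library in BMP, and 5 and 8 in ANS4 and 3 and 7 in BL6 in BMP/FGF. The mean was 0.776 ± 0.0937 CPM in EGF/FGF, 0.534 ± 0.0619 in BMP and 0.315 ± 0.12 in BMP/FGF (SD, n = 4). No 2 conditions overlapped. The log2 fold change was -1.28 in BMP/FGF against EGF/FGF (SE 0.32, -1.95 to -0.61, FDR = 0.00133), and -0.42 on the deposited log2 scale. Because the gene entered the test only through the group in which it was high, this call and its rank among the factors are given as a description and support nothing about the others. The differences of -0.53 in BMP against EGF/FGF (-1.13 to 0.07, FDR = 0.0978) and -0.76 in BMP/FGF against BMP (-1.48 to -0.03, FDR = 0.088) did not pass the test. Its total of 123 counts over 12 libraries limits the precision of each of these values.

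As a check on single genes, levels were compared by an exact permutation test over the 70 divisions of 8 libraries into 4 and 4, two-sided, whose smallest possible p is 0.0286. That p was reached by Pax6, Gsx2, Nr2e1 and Nr2f1 in BMP against EGF/FGF, by Emx2, Gsx2, Nr2e1 and Nr2f1 in BMP/FGF against EGF/FGF, and by Emx2 and Gsx2 in BMP/FGF against BMP. After Benjamini-Hochberg adjustment over the 9 factors these exact values were 0.0643, 0.0643 and 0.129. The share of all tested genes that reach the smallest p was not computed, so the number of factors that did is no result about them. Pax6 in BMP/FGF against EGF/FGF gave an exact p of 0.114. The exact values of Gsx2 rest on 3 to 17 counts per library and are a description only. The main fit did not call Gsx2 in BMP against EGF/FGF (FDR = 0.0978) or in BMP/FGF against BMP (FDR = 0.088).

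Over the 12 libraries the 6 expressed factors varied little. The SD of log2 CPM was 0.10 for Lhx2, 0.13 for Pax6, 0.16 for Nr2f1, 0.17 for Nr2e1, 0.17 for Emx2 and 0.17 for Otx1. Among the 5988 tested genes with a mean between 23.2 and 148.6 CPM the median SD was 0.29, and the factors lay between the 4.64th (Lhx2) and the 21.9th percentile (Otx1). This is a description of these libraries, and no test was made of the factors as a group.

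The lines were then compared. None of the 7 factors differed between BL6 and ANS4 at FDR under 0.05 (0 of 7, where 1.8% of all tested genes did), and the largest difference was -0.13 on the log2 scale, that of Gsx2 (95% interval -0.66 to 0.40). In the test of whether a change differed between the lines, 0 of 7 passed in BMP against EGF/FGF (9.02% of all genes), BMP/FGF against EGF/FGF (4.98%) and BMP/FGF against BMP (13.5%). These shares over all genes are unstable. Without 1 library the 1201 genes of the first became 612 to 2437, with 612 to 689 without ANS4 BMP replicate 1 or an EGF/FGF library and 2437 without BL6 BMP replicate 1. The 663 of the second became 184 to 369 without any EGF/FGF or BMP/FGF library, and 1369 and 1367 without BL6 BMP replicate 1 and 2. The 1801 of the third became 897 to 1183 without ANS4 BMP replicate 2 or any BMP/FGF library, and 2833 without BL6 BMP replicate 1. In the fit of all libraries with a mean for each line and condition, Nr2e1 was higher and Nr2f1 lower in both quiescent states within each line. By the same fit Emx2 exceeded its BMP level in BMP/FGF by 0.32 in ANS4 (FDR = 0.0065) and 0.26 in BL6 (FDR = 0.015).

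The Pax6 change in BMP/FGF against EGF/FGF was called in 1 line only. It was 0.30 in ANS4 (0.11 to 0.48, FDR = 0.00546) and 0.04 in BL6 (-0.15 to 0.23, FDR = 0.681), but the test of the difference itself gave -0.26 (-0.52 to 0.01, FDR = 0.261). For Nr2e1 in the same comparison the change was 0.42 in ANS4 and 0.22 in BL6, with a difference of -0.20 (-0.42 to 0.03, FDR = 0.317). Leaving out a BL6 BMP library changed 3 of these tests. Without replicate 1, the Nr2e1 change from BMP to BMP/FGF differed between the lines by -0.29 (FDR = 0.0385). Without replicate 2, the Otx1 change differed by -0.64 in BMP against EGF/FGF (FDR = 0.00928) and by 0.49 in BMP/FGF against BMP (FDR = 0.0319).

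**Figure D3:**
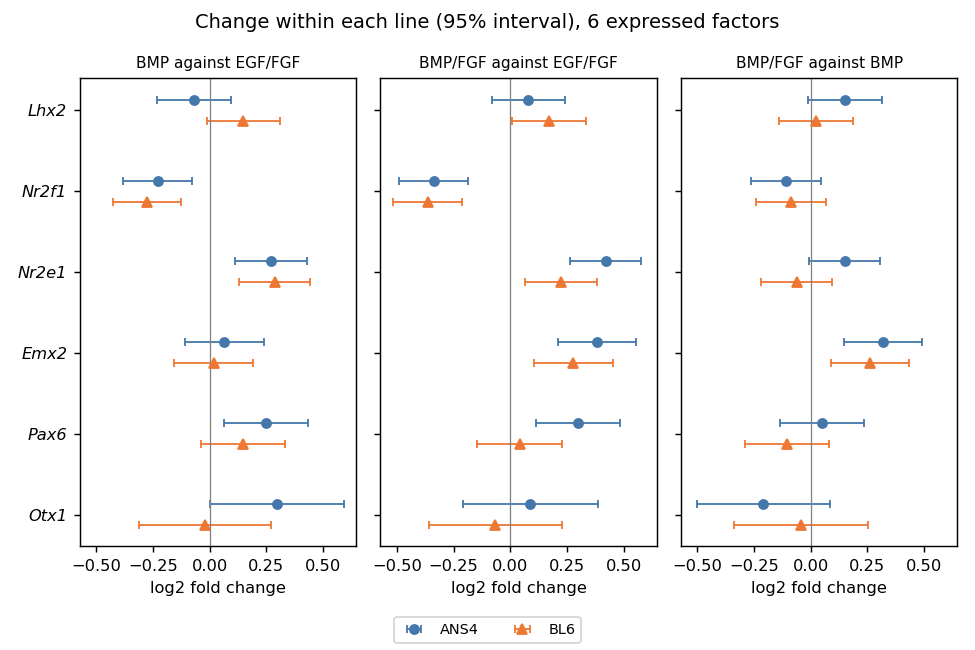
Log2 fold change (horizontal axis) of the 6 expressed factors within ANS4 (circles) and BL6 (triangles), with 95% intervals from the fit with a mean for each line and condition. Nr2f1 is below 0 and Nr2e1 above 0 in both lines in BMP and BMP/FGF against EGF/FGF, and the Pax6 change in BMP/FGF against EGF/FGF is 0.30 in ANS4 and 0.04 in BL6.

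Other regional factors were counted in lists that leave the 9 out. Their counts are to be read against the shares over all tested genes, 40.8% higher and 38.8% lower in BMP against EGF/FGF, 40.9% and 38% in BMP/FGF against EGF/FGF, and 20.1% and 21.3% in BMP/FGF against BMP. Of 8 tested pan-forebrain factors, 6 rose and 1 fell in BMP against EGF/FGF, 5 rose and 2 fell in BMP/FGF against EGF/FGF, and 0 rose and 8 fell in BMP/FGF against BMP. Their median log2 fold changes were 0.72, 0.23 and -0.50, where those over all tested genes were 0.02, 0.02 and -0.00355. Bcl11b (Ctip2), a factor of striatal and deep-layer neurons, rose by 2.51 in BMP and by 1.18 in BMP/FGF against EGF/FGF, and in BMP/FGF against BMP it fell by 1.32 (FDR = 2.24e-06). Six3, a homeobox gene of the rostral forebrain, fell by 0.78 in BMP/FGF against EGF/FGF (FDR = 3.75e-07).

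Of 12 tested ventral (subpallial) factors, 8 rose and 4 fell in BMP against EGF/FGF, 5 of them above 1.5. In BMP/FGF against EGF/FGF 7 rose and 5 fell, and in BMP/FGF against BMP 0 rose and 8 fell. Their median log2 fold changes were 1.08, 0.33 and -0.45. Dlx2, a homeobox gene that acts downstream of Gsx2 in the ganglionic eminences, was at 14.8 ± 0.683 CPM in EGF/FGF, 238 ± 79.4 in BMP and 76.8 ± 7.65 in BMP/FGF, a rise of 3.99 and 2.39. Dlx1 rose by 3.17 and 2.13. Dlx5 had 1 count over the 4 EGF/FGF libraries against 1118 in BMP and 102 in BMP/FGF, so no fold is given. Olig1, a factor of the oligodendrocyte lineage, fell by 1.28 in BMP/FGF against EGF/FGF. Sp8 fell by 2.98 between BMP and BMP/FGF.

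Neuroblast and young neuron markers moved with these groups. For 8 such genes the summed level ranged over 608 to 629.7 CPM with EGF/FGF, 1199 to 1915 with BMP and 923 to 995 with BMP/FGF, and 6 of the 7 tested rose and 1 fell in both quiescent states. In BMP/FGF against BMP all 7 fell. The summed level of 6 astrocyte genes was 1275 to 1527, 3772 to 4840 and 6469 to 6651 CPM in the same order, and that of 8 oligodendrocyte lineage genes 1519 to 1686, 812 to 1271 and 949.8 to 1037 CPM. Ependymal genes (5) summed to 71.3 to 85.4, 207 to 248 and 207 to 224 CPM, microglial genes (7) to 59.0 to 69.6, 57.8 to 68.4 and 79.8 to 86.7 CPM, and endothelial and mural genes (4) to 2.81 to 4.35, 4.48 to 7.58 and 6.09 to 7.71 CPM. The part of these cell types in the changes of the 9 factors and of the regional lists was not tested.

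Of 9 tested dorsal factors, 2 rose and 3 fell in BMP against EGF/FGF and 1 rose and 4 fell in BMP/FGF against EGF/FGF, a total that was 3 without ANS4 EGF/FGF replicate 1 or 2 or BL6 BMP/FGF replicate 2. In BMP/FGF against BMP 0 rose and 2 fell, a count that was 1 without ANS4 BMP/FGF replicate 2, either BL6 BMP library or BL6 BMP/FGF replicate 2. With 9 genes these counts are near or below the shares of 38.8%, 38% and 21.3% of all genes that fell, and are no result about dorsal factors. The median log2 fold changes were -0.37, -0.61 and -0.37. Gli3, a zinc finger effector of hedgehog signalling that is needed for the dorsal telencephalon, fell from 22.5 ± 2.94 CPM in EGF/FGF by 0.78 in BMP and by 0.61 in BMP/FGF. Msx1, a homeobox target of BMP signalling at the dorsal midline, rose by 1.17 and 0.79. Eomes, Tbr1, Fezf2, Neurog1 and Neurod6, genes of the cortical projection neuron lineage, did not pass the filter and were at or below 12 counts in every library. Neurod1 of the same list passed it, at no more than 19 counts in any library. It was lower in BMP/FGF than in EGF/FGF by 1.86 (FDR = 0.016).

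Of 11 tested midbrain, hindbrain and spinal cord factors, 4 rose and 4 fell in BMP against EGF/FGF, and 4 rose and 5 fell in BMP/FGF against EGF/FGF. In BMP/FGF against BMP 4 rose and 3 fell, a total that was 3 or 4 when any of ANS4 BMP replicate 1 or 2 or a BMP/FGF library of either line was left out. Pax2, a midbrain and kidney relative of Pax6, fell by 2.29 and 1.42, and Egr2, an immediate early gene that also patterns the hindbrain, rose by 1.40 and 1.71.

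Among LIM cofactors, which bridge or block LIM-homeodomain proteins such as Lhx2, 5 of 9 rose and 3 fell in BMP against EGF/FGF, 3 rose and 4 fell in BMP/FGF against EGF/FGF, and 2 rose and 5 fell in BMP/FGF against BMP. Lmo1, which competes with LIM-homeodomain proteins for their cofactor, fell by 2.08 and 1.48, and Ssbp2, which stabilises the cofactor complex, rose by 0.88 and 0.62, while Lhx2 itself did not pass the test. In the list of family relatives of the 9 factors, only Nr2f2, Nr2f6 and Gsx1 were tested. Other relatives, such as Pax2, are counted in the lists above. Nr2f2 rose by 0.31 in BMP against EGF/FGF (FDR = 0.00667) and fell by 0.43 in BMP/FGF against BMP (FDR = 0.00166). In BMP/FGF against EGF/FGF it did not pass the test (-0.12, FDR = 0.245). Nr2f6 fell by 1.17 in BMP and by 1.18 in BMP/FGF against EGF/FGF. Gsx1 rose by 1.33 in BMP and by 0.76 in BMP/FGF against EGF/FGF. Its paralog Gsx2, at 3 to 17 counts per library, is described above by its counts and is not set against it.

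**Figure D4:**
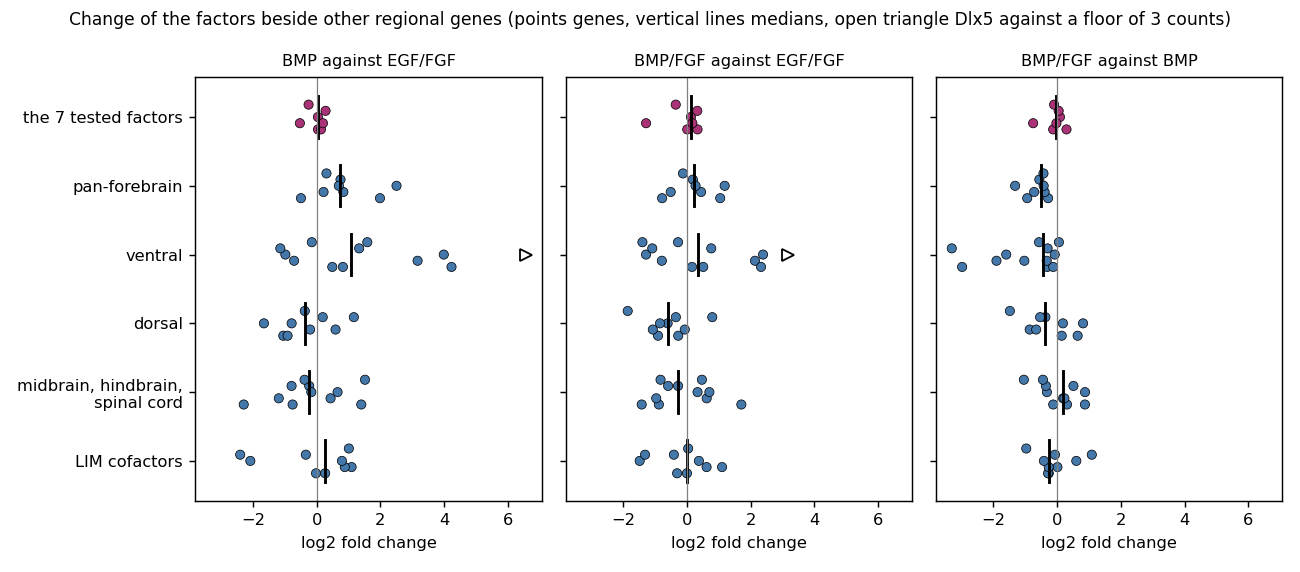
Log2 fold change (horizontal axis) of the 7 tested factors and of 5 lists of other regional or LIM-related genes in the 3 comparisons. Each point is a gene and each vertical line a list's median. Dlx5 is drawn as an open triangle against a floor of 3 counts where EGF/FGF is the reference. The factors lie between -1.28 and 0.33, while pan-forebrain and ventral genes reach 2.51 and above in BMP against EGF/FGF.

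The genes whose log2 CPM followed each factor most closely over the 12 libraries were searched among 10840 genes. The closest was Tgif2 for Nr2f1 (Pearson's r = 0.97), followed by Klf16 and Rmi2. For Nr2e1 it was Tchp (0.96), for Gsx2 Abt1 (0.94), for Emx2 Sec14l2 (0.93), for Lhx2 Adcy3 (0.90), for Pax6 Wdr13 (0.86) and for Otx1 Cyb561a3 (0.85). These are the highest of many correlations over libraries that share conditions and lines, and are given as a description only.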

How the data were processed

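RNA-seq was measured in 12 libraries: EGF/FGF, BMP and BMP/FGF, each with 2 replicates of ANS4 and of BL6. RNA had an integrity number of at least 9.6, and a low input library was made for BGISEQ-500RS. Per the submitters' processing notes, reads were trimmed with Trim Galore 0.5.0 and quantified with kallisto 0.44.0 against mm10, and the authors deposited counts per gene as whole numbers. They also deposited log2 values, the regularized logarithm (rlog) of DESeq2 1.27.32, used here only in an alternative. The strand setting is not given in the sources used here. The 9 factors and the gene lists were chosen with earlier results of these data known.

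Genes were kept by edgeR's filterByExpr, whose minimum must be met in at least as many libraries as 1 condition holds, scaled by TMM, and fitted with the quasi-likelihood F-test of edgeR 4.0.16 (R 4.3.3) on all 12 libraries with condition and line as terms. P-values were two-sided, with the FDR taken across the 13312 genes. Called means FDR under 0.05, and an absolute log2 fold change above 1.5 was counted beside it. Differences between lines in a change came from a fit with a mean for each line and condition. CPM used TMM-scaled totals, log2 CPM a prior count of 2, and the permutation test log2 of CPM with 0.1 added. Named from each list were genes among the up to 3 per comparison with the lowest FDR, and for each factor genes among the 3 with the highest correlation and a mean of at least 5 CPM. Csf1r, Nes, Vim, Slc1a3, the antisense RNAs, Eomes, Tbr1, Fezf2, Neurog1, Neurod6 and the Hox genes other than Hoxa5 were named after values were seen. Transcript lengths and positions came from GENCODE vM21. Alternatives were DESeq2 1.42.0 size factors or its Wald test, library size only, limma-trend (limma 3.58.1) on rlog values, no filter, no line term, a replicate block, the 8 libraries of a comparison alone, 1 line alone and leaving out single libraries. The steps were tested on simulated data. Some genes of the lists are counted in them but not reported here by name.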

Additional observations from a re-analysis of the deposited data

Results flagged for a closer look

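In the 4 BMP libraries Gsx2 was at 0.443 CPM in ANS4 replicate 2 (8 counts), whereas the others lay between 0.552 and 0.573 CPM (10 or 11 counts). The gap to the nearest library was 0.837 of the range, above Dixon's 95% critical value for 4 samples. It amounts to 2 counts, and chance alone marks about 1 in 20 such groups, of which 21 were examined.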

How the results depend on the processing

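The calls of Nr2e1 and Nr2f1 in both quiescent states and of Emx2 in BMP/FGF held in every alternative run; those of Pax6 did not. Leaving out single libraries gave 1 to 2 factors called in BMP/FGF against BMP, 0 to 1 factors whose change differed between lines in BMP against EGF/FGF and 0 to 1 in BMP/FGF against BMP. Where this leaves 1 sample of a line and condition, that sample is assumed to vary like the others. No pairing of samples by replicate number was established (correlations of deviations from -0.18 to 0.31 over 9966 genes). With 2 replicates per line and condition these values cannot exclude it, and the highest was that of ANS4 in BMP against EGF/FGF. With the replicate block Pax6 in BMP/FGF against EGF/FGF was 0.17 (FDR = 0.0501) and 1 dorsal factor was called in BMP/FGF against BMP.

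Values without a call changed sign in places. Otx1 in BMP/FGF against EGF/FGF was -0.00864 with DESeq2 size factors, -0.017 with library size only, -0.00852 with the Wald test, -0.0014 with only the 8 libraries, -0.080 in BL6 alone and -0.060 to 0.046 without single libraries. In ANS4 alone Lhx2 was -0.071 in BMP against EGF/FGF and Pax6 0.049 in BMP/FGF against BMP. In BL6 alone Otx1 was -0.039 in BMP against EGF/FGF and Nr2e1 -0.060 in BMP/FGF against BMP. Without single libraries, Lhx2 in BMP against EGF/FGF ranged from -0.00596 to 0.090, Emx2 from -0.0025 to 0.082, Pax6 in BMP/FGF against BMP from -0.071 to 0.030, and the line differences of Nr2f1 from -0.040 to 0.015 and of Nr2e1 from -0.050 to 0.0021. The line difference within EGF/FGF was 0.012 for Nr2f1, 0.078 for Pax6 and 0.042 for Nr2e1, within BMP 0.20 for Gsx2, 0.077 for Lhx2, -0.10 for Otx1 and 0.058 for Nr2e1, and within BMP/FGF -0.016 for Emx2.

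Counts for the other lists moved more. Between lines, 2 ventral factors were called, 1 with limma, 0 within EGF/FGF, 9 within BMP, 0 within BMP/FGF and 0 to 3 without single libraries (0 without ANS4 BMP replicate 1 or 2, 1 without BL6 BMP replicate 1). Within BMP the lines differed in 6 pan-forebrain, 3 dorsal, 2 midbrain to spinal, 1 related and 3 LIM cofactor genes, and within EGF/FGF in 1 midbrain to spinal gene. Without the filter 5 relatives were called in BMP against EGF/FGF and 4 in BMP/FGF against BMP, where ANS4 alone gave 1. Dorsal factors called in BMP/FGF against EGF/FGF were 3 with the Wald test, 3 with only the 8 libraries, 3 in ANS4 alone, 3 in BL6 alone and 3 to 5 without single libraries (3 without ANS4 EGF/FGF replicate 1 or 2 or BL6 BMP/FGF replicate 2). In BMP/FGF against BMP they were 1 without the filter, 1 in ANS4 alone, 5 in BL6 alone and 1 to 3 without single libraries. Midbrain to spinal factors there were 4 without the filter, 4 with only the 8 libraries, 2 in ANS4 alone, 4 in BL6 alone and 3 to 7 without single libraries, and LIM cofactors 4 in ANS4 alone. The cause of these differences was not tested. Gsx2, at 3 to 17 counts per library, is limited by depth.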

Other observations

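Genes of the HoxA cluster, which pattern the hindbrain and spinal cord, were counted in all conditions. Hoxa5 was at 19.1 ± 1.32 CPM (SD, n = 4) in EGF/FGF, 11.3 ± 0.288 in BMP and 10.3 ± 0.46 in BMP/FGF. Hoxa3 was at 10.9 ± 0.771, 9.28 ± 1.42 and 7.27 ± 1.10 CPM, and Hoxa2 and Hoxa4 were at 1.75 CPM or more in every condition on average. Hoxa5 fell by 0.75 in BMP and by 0.88 in BMP/FGF against EGF/FGF, and Hoxa2 rose by 0.66 and 0.33 (FDR = 0.000142 and 0.0283), so that members of 1 cluster moved in opposite directions. In the same libraries Hoxb1, Hoxb3, Hoxc4, Hoxc8 and Hoxd3 had at most 3 counts each. These genes were singled out after their values were seen, and the source of the HoxA counts was not tested.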
